A study of Sus scrofa with 18 samples.

Results

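Interferon-stimulated genes are the genes that cells switch on after an interferon has bound its receptor at the cell surface. The receptor activates JAK kinases, which phosphorylate STAT proteins. STAT2 and IRF9 belong to the complex ISGF3, which binds response elements in the promoters of the target genes. The products detect viral RNA, degrade it, block its translation, tag proteins with the ubiquitin-like protein ISG15, and feed back on the pathway. In epithelium and in tumours the same programme is known as a response to viral or misplaced cellular nucleic acid.

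A set of 44 such genes was followed by gene symbol through a count table of 27339 genes from pig tissue. Of the 44, a row was present for 42, and 37 had enough counts to be tested among 12895 tested genes. IFIT5 and SAMD9 were not analysed here. The other 5 genes (ISG20, MX2, XAF1, PARP14 and ZBP1) had rows with too few counts for the test. All members with a row were matched by symbol to the RefSeq gene table of the assembly Sscrofa11.1, which served for names only.

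The libraries compare tumours of a double knock-in (DIK) pig, which carries elements of the Tet-on and phiC31 integrase switching systems, with normal tissue of wild-type (WT) pig. Doxycycline, the drug that operates the Tet-on switch, was given to both genotypes from 7 months of age, and the animals were sampled 8 months after that. Each of the 6 groups has 3 libraries: DIK nose, DIK mouth and DIK scrotum from tumours, and WT nose, WT mouth and WT scrotum from normal tissue. Every DIK library comes from 1 founder, so tumour sites differ within that animal only. The labels do not give how many WT animals were used, and p-values therefore measure the spread between these libraries, which may be technical. Which genes the knock-in switches on, and in which cells, is not stated in the labels.

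Library totals ran from 418665 counts in WT nose replicate 1 to 5041470 in WT nose replicate 3, so that 3 counts equal 0.483 to 5.76 CPM (a gene's count scaled to a common library total). The shallow library, WT nose replicate 1, had 0 counts for 15 of the 42 members. Tissue make-up differed between genotypes. Summed keratinocyte markers (11 of 12 listed genes with a row) spanned 66204 to 133821 CPM in DIK and 96.3 to 24751 CPM in WT, where the highest value, in WT scrotum replicate 2, stood apart from the other 8. Skeletal muscle markers spanned 106428 to 332403 CPM in WT nose and WT scrotum, 3822 to 9635 CPM in WT mouth and at most 946 CPM in any DIK library. In WT mouth, smooth muscle markers spanned 41642 to 74061 CPM, against at most 375 CPM in any DIK library. Fibroblast markers spanned 15669 to 24964 CPM there and 2139 to 2536 CPM in DIK mouth. Posterior HOX genes, silent in the head, summed to 42.2 to 70.8 CPM in WT mouth and 3.36 to 6.52 CPM in WT scrotum, which goes against these labels; the DIK sums were 11.7 to 20.4 CPM at mouth and 0.625 to 4.19 CPM at scrotum. The names mouth and scrotum are used below only as labels. A DIK-WT difference would keep its libraries if the labels were exchanged in both genotypes. In bulk tissue, fewer cells of a type and less RNA per cell cannot be told apart.

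Many interferon-stimulated genes had their highest level in the nose tumour. All 3 DIK nose libraries lay above the other 15 libraries for 18 of the 37 tested members, against 1.82% of all tested genes. These are ISG15, OAS1, OAS2, OASL, MX1, IFI44, IFI44L, IFIH1, DDX58, DHX58, IRF7, IRF9, USP18, HERC5, EIF2AK2, ZNFX1, UBE2L6 and CXCL10. For some of them the place in this list was near fixed, because the count filter kept them through DIK nose. OASL had 802 counts there and at most 28 in any other group. CXCL10 was at least 4.64 CPM there and at most 1.76 CPM elsewhere. The level summed over the 42 members was 1787, 2859 and 1732 CPM in DIK nose and between 249 and 541 CPM in the other 15 libraries. ISG15 supplied much of that sum. Without it the DIK nose libraries summed to 956 to 1097 CPM, and the other 15 to 235 to 515 CPM. Within DIK nose, replicate 2 was the highest library for 24 of 37 members, against 35.8% of all genes. That library also stood apart in its markers. Its neutrophil sum was 20961 CPM, against 2463 and 2145 CPM in replicates 1 and 3, and its fibroblast sum 803 CPM against 2150 and 2050 CPM. Its B and plasma cell sum was 81.3 CPM against 431 and 367 CPM, and its skeletal muscle sum 12.4 CPM against 733 and 946 CPM.

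**Figure D1:**
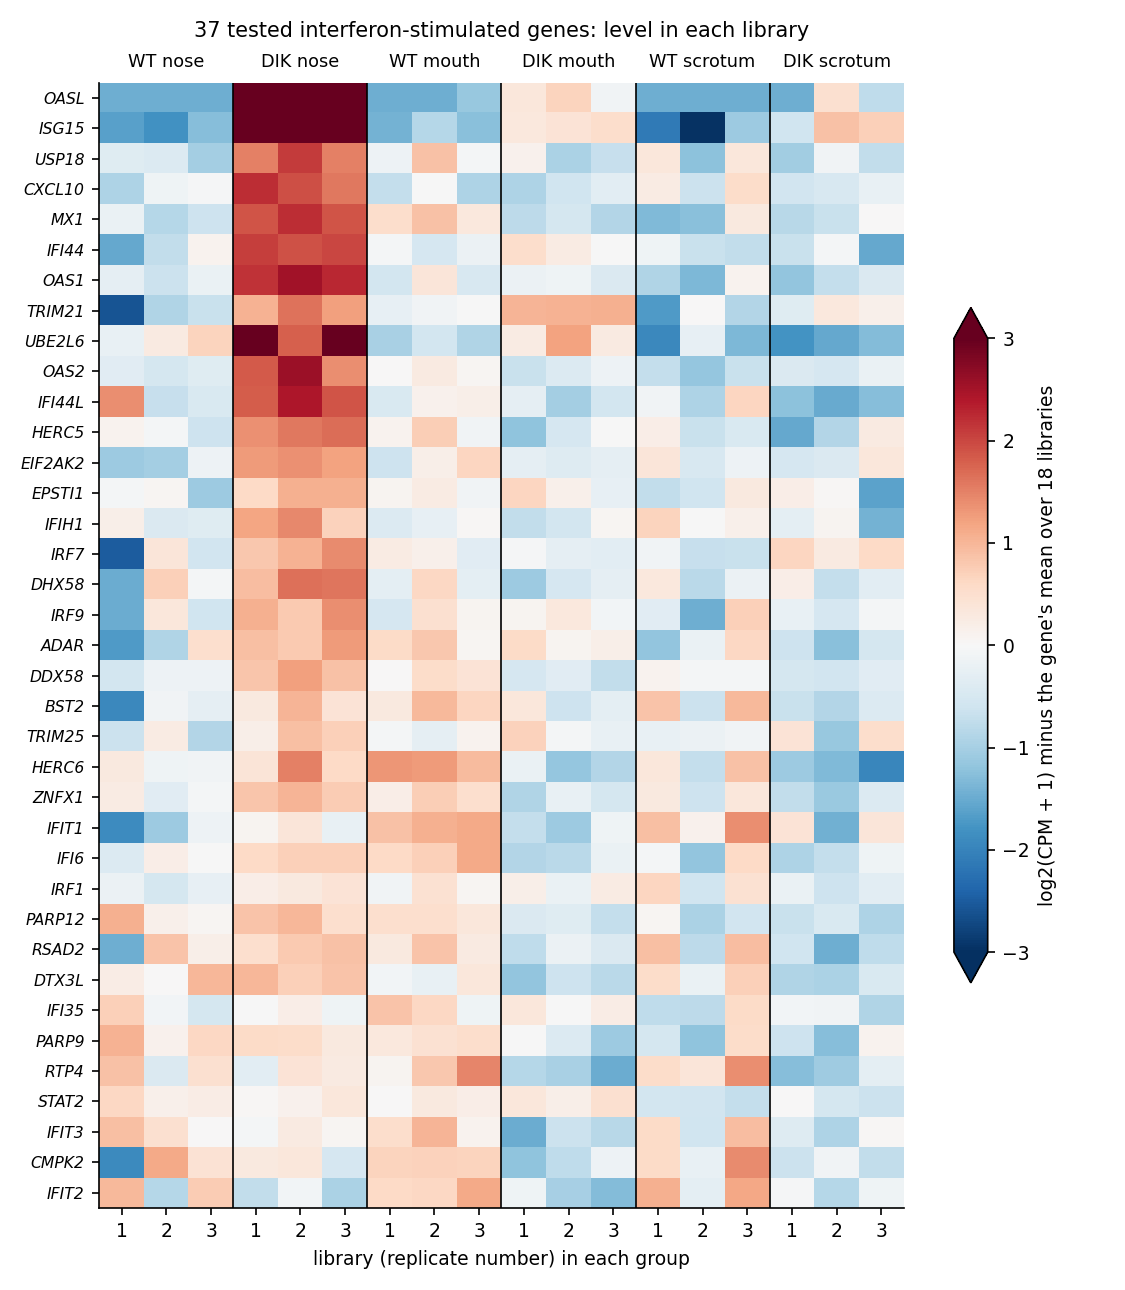
Level of each of the 37 tested members (rows) in each of the 18 libraries (columns), as log2(CPM + 1) minus the gene's mean over the libraries. Colours stop at 3 in each direction. Red cells gather in the 3 DIK nose columns, where 18 members have all 3 values above those of the other 15 libraries.

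At the nose label, where tumour was compared with normal tissue, genes of several arms of the interferon response were higher in the tumour. Of the 3 tested IFIT genes and the 3 tested genes for ADP-ribosylation, 0 were called. The MX and chemokine arms were 1 tested gene each. ISG15 and the 2'-5'-oligoadenylate synthetase relative OASL had the largest differences, followed by the feedback protease USP18, the chemokine CXCL10 and the antiviral GTPase MX1. edgeR called 19 of 37 members higher and 0 lower at an adjusted p under 0.05. Across all genes 21.9% were called higher and 20.1% lower. The 19 include OASL and CXCL10, which the count filter kept through DIK nose, so a higher value there was near fixed. The median log2 difference was 1.38 over the members and 0.03 over all tested genes, and the count of lower members was 0 with DESeq2, with limma-voom and at an unadjusted p under 0.05. Of the 19 calls, 15 were made under every alternative in which the gene was tested, and the exceptions are named below with the libraries they depend on. A stricter filter (10 CPM in 3 libraries) tested 21 members only, so CXCL10, IFI44, IFIH1 and USP18 were not tested under it.

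Of the 5 members that act in the conjugation of ISG15 to other proteins or in its removal, 4 had higher mRNA. Conjugation itself was not measured. ISG15, the modifier itself, reached 827, 1762 and 776 CPM in DIK nose against 19.2, 16.8 and 24.6 CPM in WT nose. The groups were far apart, with a log2 difference of 5.78 ± 0.55 (SE, edgeR adjusted p = 4.16e-07). UBE2L6, the enzyme that carries activated ISG15, measured 91.5, 34.2 and 92.6 CPM in the tumour and 7.68, 11.3 and 15.2 CPM in normal tissue. Here replicate 2, the library highest for ISG15, was the lowest of the DIK nose libraries, and the difference was 2.57 ± 0.45 (edgeR adjusted p = 0.000226). HERC5, the ligase of the human pathway, differed by 2.17 ± 0.55, and USP18, which removes ISG15 and damps the receptor, by 3.09 ± 0.67. HERC6, a relative of HERC5, was 10.4, 23.7 and 12.3 CPM against 9.60, 6.94 and 7.05 CPM. Its groups did not overlap, yet it was not called (1.06 ± 0.45, edgeR adjusted p = 0.065).

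The enzymes that act on double-stranded RNA had 4 of 5 members higher at the nose. OAS1, which makes the messenger that activates RNase L, was 77.4, 99.6 and 82.2 CPM in DIK nose and 13.4, 10.2 and 14.3 CPM in WT nose. This gave a log2 difference of 2.78 ± 0.38 (edgeR adjusted p = 1.75e-05). Its relative OAS2 measured 64.1, 107 and 47.0 CPM against 13.4, 11.7 and 13.2 CPM, a difference of 2.51 ± 0.30 (edgeR adjusted p = 5.15e-06). OASL, which binds RNA sensors and makes no messenger, was 55.1, 106 and 49.4 CPM in the tumour, from 802 counts. No OASL count was found in the 3 WT nose libraries, so its level was at least 185-fold higher in DIK against 3 counts over the WT group (edgeR adjusted p = 1.01e-05). EIF2AK2, the kinase PKR that halts translation, was 202, 215 and 193 CPM against 38.4, 40.2 and 74.6 CPM, and differed by 1.97 ± 0.36. ADAR, the RNA-editing enzyme, was not called (1.38 ± 0.63, edgeR adjusted p = 0.0855).

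MX1, a GTPase that traps viral nucleocapsids, measured 27.7, 35.0 and 27.6 CPM in DIK nose against 5.76, 3.29 and 4.06 CPM in WT nose. The groups did not overlap, and the difference was 2.91 ± 0.46 (edgeR adjusted p = 7.24e-05). Of the 5 tested sensors of nucleic acid, 3 were higher. DDX58, which encodes the RNA sensor RIG-I, was 26.5, 35.0 and 27.6 CPM against 9.60, 12.8 and 12.8 CPM, and differed by 1.28 ± 0.25 (edgeR adjusted p = 0.000517). IFIH1, the sensor MDA5 of long double-stranded RNA, differed by 1.77 ± 0.48. ZNFX1, a helicase that senses RNA at mitochondria, was 23.5, 26.9 and 22.1 CPM against 15.4, 9.86 and 12.2 CPM. Its difference of 1.02 ± 0.32 (edgeR adjusted p = 0.0153) was not called when WT nose replicate 2 or replicate 3 was left out, with an adjusted p of up to 0.0805. The regulators DHX58 (1.53 ± 0.62) and TRIM25 (1.18 ± 0.54) were not called.

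Among the transcription factors of the response, IRF9 and IRF7 were higher and STAT2 and IRF1 were not called. IRF9, the DNA-binding subunit of ISGF3, was 27.2, 22.3 and 34.7 CPM in the tumour and 3.84, 16.1 and 7.91 CPM in normal tissue. The difference of 1.44 ± 0.48 (edgeR adjusted p = 0.022) was lost without DIK nose replicate 3, WT nose replicate 1 or WT nose replicate 3, with an adjusted p of up to 0.11. IRF7, which amplifies type I interferon production, was 8.74, 10.5 and 13.9 CPM against 0, 6.21 and 2.78 CPM. It differed by 1.55 ± 0.44 (edgeR adjusted p = 0.00808), and the call was lost without WT nose replicate 3 (adjusted p = 0.07). STAT2, the ISGF3 subunit that activates transcription, was 13.6, 14.5 and 17.2 CPM against 21.1, 15 and 15.8 CPM, groups that overlap. IRF1, a factor of the interferon gamma response, was 10.2, 11 and 12.0 CPM against 7.68, 5.84 and 7.27 CPM, a difference of 0.71 ± 0.35 (edgeR adjusted p = 0.114).

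Of the 10 other effectors tested, IFI44, IFI44L, EPSTI1 and TRIM21 were higher at the nose. IFI44L, a negative regulator of the response, was 23.3, 36.3 and 24.6 CPM against 17.3, 3.29 and 4.06 CPM, where the high WT value is the shallow replicate 1. It differed by 2.29 ± 0.52 (edgeR adjusted p = 0.00188). TRIM21, the cytosolic receptor for antibody, was 11.4, 17.5 and 13.1 CPM against 0, 2.19 and 2.78 CPM, a difference of 2.61 ± 0.48 (edgeR adjusted p = 0.000319). IFI44 differed by 2.90 ± 0.56, and the chemokine CXCL10, which draws activated T cells, by 3.03 ± 0.78. EPSTI1 differed by 1.92 ± 0.71 (edgeR adjusted p = 0.0351), a call lost without DIK nose replicate 2, DIK nose replicate 3 or WT nose replicate 3. The mitochondrial protein IFI6 was 51.5, 55.7 and 55.2 CPM against 24.9, 38.7 and 33.3 CPM and was not called (0.71 ± 0.36, edgeR adjusted p = 0.123).

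Other antiviral genes were not called at the nose. Among them were all 3 measured IFIT genes, whose products bind foreign RNA ends. IFIT3 was 3.40, 4.58 and 3.82 CPM in DIK nose against 7.68, 5.48 and 3.63 CPM in WT nose, a difference of -0.33 ± 0.52. IFIT1 differed by 0.96 ± 0.70 and IFIT2 by -1.6 ± 0.91. RSAD2 (viperin, which makes a chain-terminating nucleotide) was 2.91, 3.77 and 4.10 CPM against 0, 4.02 and 2.14 CPM, with overlap and a difference of 0.46 ± 0.67. CMPK2, its neighbour in the same nucleotide pathway, differed by -0.63 ± 0.59. None of the 3 tested genes for ADP-ribosylation was called, and RTP4 differed by -0.13 ± 0.50.

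**Figure D2:**
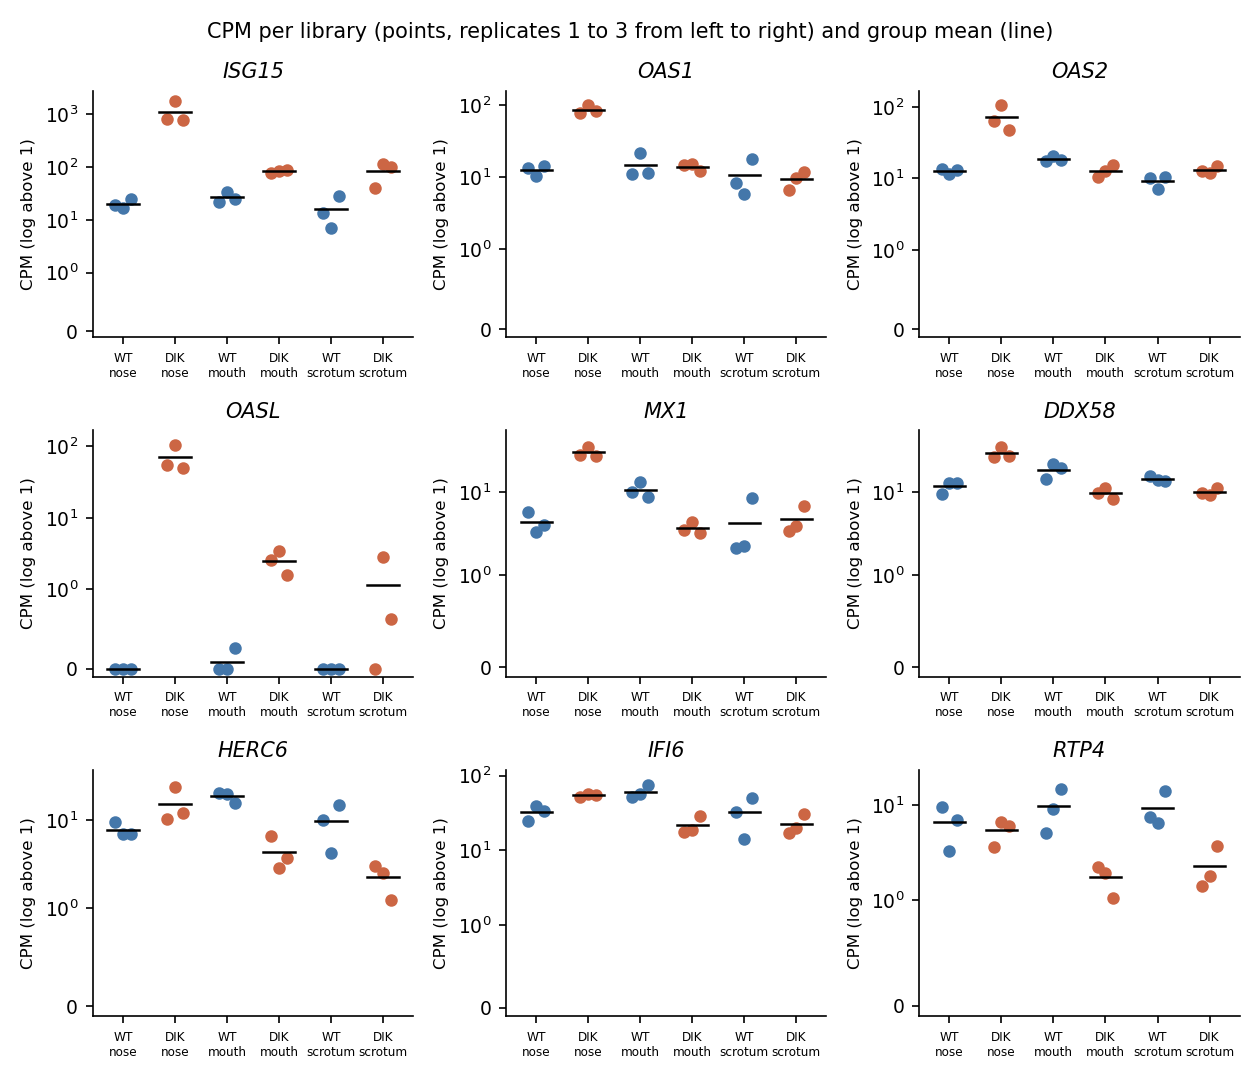
CPM of 9 members in the 3 libraries of each group (points, replicates 1 to 3 from left to right) with the group mean (line). The axis is linear below 1 CPM and logarithmic above. ISG15, OAS1, OAS2, OASL, MX1 and DDX58 are highest in DIK nose, and HERC6, IFI6 and RTP4 have lower means in DIK mouth and DIK scrotum than in WT of the same label.

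At the mouth label the picture divided. ISG15, OASL, TRIM21 and UBE2L6 were higher in the tumour, while 12 members were lower, among them all 3 measured IFIT genes, MX1, HERC6, RTP4 and the sensor DDX58. The share of all genes called was 22.7% higher and 24.3% lower, so that 4 of 37 higher members lie under that background and 12 of 37 lower members somewhat above it. The members' median log2 difference was -0.68, against -0.04 for all genes. Of the 16 calls, 11 were made under every alternative in which the gene was tested, which leaves out the stricter filter for IFIT1 and IFIT3 and the fit to only the groups compared for OASL.

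ISG15 was 76.3, 82.4 and 89.0 CPM in DIK mouth against 22.2, 33.6 and 25.2 CPM in WT mouth, and differed by 1.61 ± 0.46 (edgeR adjusted p = 0.00773). TRIM21 was 11.1, 11.4 and 11.5 CPM against 4.02, 4.53 and 4.98 CPM, a difference of 1.33 ± 0.40 (edgeR adjusted p = 0.0108). UBE2L6 was 11.1, 22.6 and 11.2 CPM against 4.18, 5.93 and 4.46 CPM, and its difference of 1.62 ± 0.45 (edgeR adjusted p = 0.00649) was lost without DIK mouth replicate 2 (adjusted p = 0.055). For these 3 genes the groups did not overlap. OASL had 28 counts in DIK mouth (2.53, 3.40 and 1.6 CPM) and 1 count in WT mouth, a ratio of 40.0 with an exact 95% counting interval of 6.62 to 1636 (edgeR adjusted p = 0.0034).

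Of the members lower at the mouth, HERC6 had the smallest adjusted p. It was 6.64, 2.92 and 3.73 CPM in DIK mouth and 20.8, 20.04 and 15.7 CPM in WT mouth, without overlap, and differed by -2.11 ± 0.43 (edgeR adjusted p = 0.000675). RTP4, a receptor chaperone with antiviral activity, was 2.21, 1.94 and 1.07 CPM against 5.15, 9.24 and 15 CPM, a difference of -2.46 ± 0.51 (edgeR adjusted p = 0.000748). IFI6 was 17.7, 18.7 and 28.8 CPM against 51.3, 55.8 and 75.3 CPM, and differed by -1.48 ± 0.36 (edgeR adjusted p = 0.00255). In each of these genes the lowest WT library was above the highest DIK library.

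The IFIT genes moved together at the mouth, where all 3 were lower. IFIT3 was 0.633, 1.94 and 1.6 CPM against 5.63, 8.37 and 3.93 CPM, a difference of -2.05 ± 0.52 (edgeR adjusted p = 0.00346). IFIT1 differed by -2.14 ± 0.61. IFIT2 differed by -2.73 ± 0.88, a call lost without DIK mouth replicate 2 or replicate 3. MX1 and DDX58, both higher in the nose tumour, were lower here. MX1 was 3.48, 4.37 and 3.20 CPM against 10.1, 13.4 and 8.66 CPM (-1.54 ± 0.42, edgeR adjusted p = 0.00579), and DDX58 was 9.81, 11.2 and 8.26 CPM against 14.5, 21.6 and 19.4 CPM (-0.92 ± 0.24, edgeR adjusted p = 0.00404). ZNFX1, also higher at the nose, was 6.33, 10.7 and 8.53 CPM against 14.8, 22 and 18.4 CPM (-1.10 ± 0.31). These 3 genes changed in opposite directions at nose and mouth.

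The remaining lower members at the mouth were CMPK2, PARP12 and DTX3L. DTX3L, the ubiquitin ligase that partners PARP9, was 26.3, 39.1 and 33.9 CPM against 57.1, 51.9 and 77.1 CPM and differed by -0.90 ± 0.31 (edgeR adjusted p = 0.0209). That call was lost without DIK mouth replicate 1, DIK mouth replicate 3 or WT mouth replicate 3. PARP12 differed by -1.09 ± 0.33 and lost its call without DIK mouth replicate 3. CMPK2 differed by -1.78 ± 0.61 and lost its call without DIK mouth replicate 1 or replicate 2. The transcription factors were not called, with STAT2 at 17.1, 15.1 and 18.9 CPM against 13.5, 16.6 and 15.5 CPM, IRF9 at 13.3, 15.8 and 11.7 CPM against 8.53, 18.0 and 13.4 CPM, and differences of 0.16 ± 0.24 and 0.04 ± 0.45.

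At the scrotum label, ISG15, OASL and IRF7 were higher in the tumour and 7 members were lower, namely IFI44L, RSAD2, HERC6, BST2, RTP4, DTX3L and ZNFX1. Among all genes 19.4% were called higher and 24.0% lower, so the members' counts of 3 and 7 of 37 do not exceed the background. Their median difference was -0.55 and that of all genes -0.09. Only ISG15, HERC6, RTP4 and DTX3L kept their calls under every alternative run. The count of lower members was 13 without WT scrotum replicate 2, the library with the high keratinocyte sum. It was 4 without WT scrotum replicate 1 or DIK scrotum replicate 1, and 3 without WT scrotum replicate 3 or DIK scrotum replicate 2.

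ISG15 was 40.2, 113 and 102 CPM in DIK scrotum against 13.4, 6.93 and 28.1 CPM in WT scrotum, without overlap, and differed by 2.39 ± 0.48 (edgeR adjusted p = 0.000559). IRF7 was 7.82, 5.72 and 7.5 CPM against 4.20, 2.45 and 2.51 CPM, a difference of 1.24 ± 0.44 (edgeR adjusted p = 0.0286). The IRF7 call was lost with limma-voom and without DIK scrotum replicate 1 or 3 or WT scrotum replicate 2 or 3. OASL had 9 counts in DIK scrotum and 0 in WT scrotum, at least 4.24-fold higher, and 1 of the 3 DIK libraries was at 0. Its call (edgeR adjusted p = 0.0294) was lost with limma-voom, without DIK scrotum replicate 2 and without any 1 of the WT scrotum libraries, with an adjusted p of up to 0.298.

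The lower members at the scrotum were led by the ones also lower at the mouth. RTP4 was 1.4, 1.79 and 3.75 CPM in DIK scrotum and 7.55, 6.52 and 14.3 CPM in WT scrotum (-2.16 ± 0.54, edgeR adjusted p = 0.0033). HERC6 was 3.07, 2.5 and 1.25 CPM against 10.1, 4.28 and 15 CPM (-1.98 ± 0.50, edgeR adjusted p = 0.00354). DTX3L was 31.9, 31.1 and 43.8 CPM against 89.4, 52.4 and 99.6 CPM (-1.18 ± 0.31, edgeR adjusted p = 0.00482). In all 3 the tumour libraries lay below the normal ones. HERC6, RTP4, DTX3L and ZNFX1 were called lower at both labels. The share of all genes called lower at both was not computed. These comparisons share no library, but all DIK libraries come from 1 animal and 1 fit gave the spread. They are therefore not replicates of each other.

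The other calls at the scrotum rested on fewer libraries. IFI44L was 1.96, 1.43 and 1.88 CPM against 5.45, 2.65 and 9.78 CPM (-1.74 ± 0.60, edgeR adjusted p = 0.0247), and was not called without DIK scrotum replicate 1 or 2 or WT scrotum replicate 3. RSAD2 was 0.838, 0 and 0.625 CPM against 4.20, 0.611 and 4.26 CPM (-2.46 ± 0.86, edgeR adjusted p = 0.0276), where WT replicate 2 overlaps the tumours. That call was lost without DIK scrotum replicate 2 or WT scrotum replicate 1 or 3. ZNFX1 was 7.27, 5.36 and 9.38 CPM against 15.9, 7.95 and 16.3 CPM (-0.88 ± 0.33, edgeR adjusted p = 0.0373) and lost its call without DIK scrotum replicate 1 or 2 or WT scrotum replicate 1 or 3, with no filter on low counts, and with only the groups compared. BST2, the tether that holds virions at the cell surface, differed by -1.65 ± 0.62 (edgeR adjusted p = 0.038), and its call was lost with the replicate number as a block and when any of the DIK scrotum libraries, WT replicate 1 or WT replicate 3 was left out.

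Members called at one label and not at another were described by their values. OAS1 was 14.6, 15.1 and 12.0 CPM in DIK mouth against 10.9, 21.4 and 11.5 CPM in WT mouth, and 6.71, 9.65 and 11.9 CPM in DIK scrotum against 8.39, 5.91 and 17.8 CPM in WT scrotum. OAS2 was 10.4, 12.6 and 15.5 CPM in DIK mouth against 17.4, 20.9 and 18.1 CPM in WT mouth, a difference of -0.55 ± 0.28 (edgeR adjusted p = 0.119). MX1 in DIK scrotum was 3.35, 3.93 and 6.88 CPM against 2.1, 2.24 and 8.53 CPM in WT scrotum. Outside the nose, OAS1 and the MX1 values at the scrotum overlapped between the genotypes, while OAS2 at the mouth did not.

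**Figure D3:**
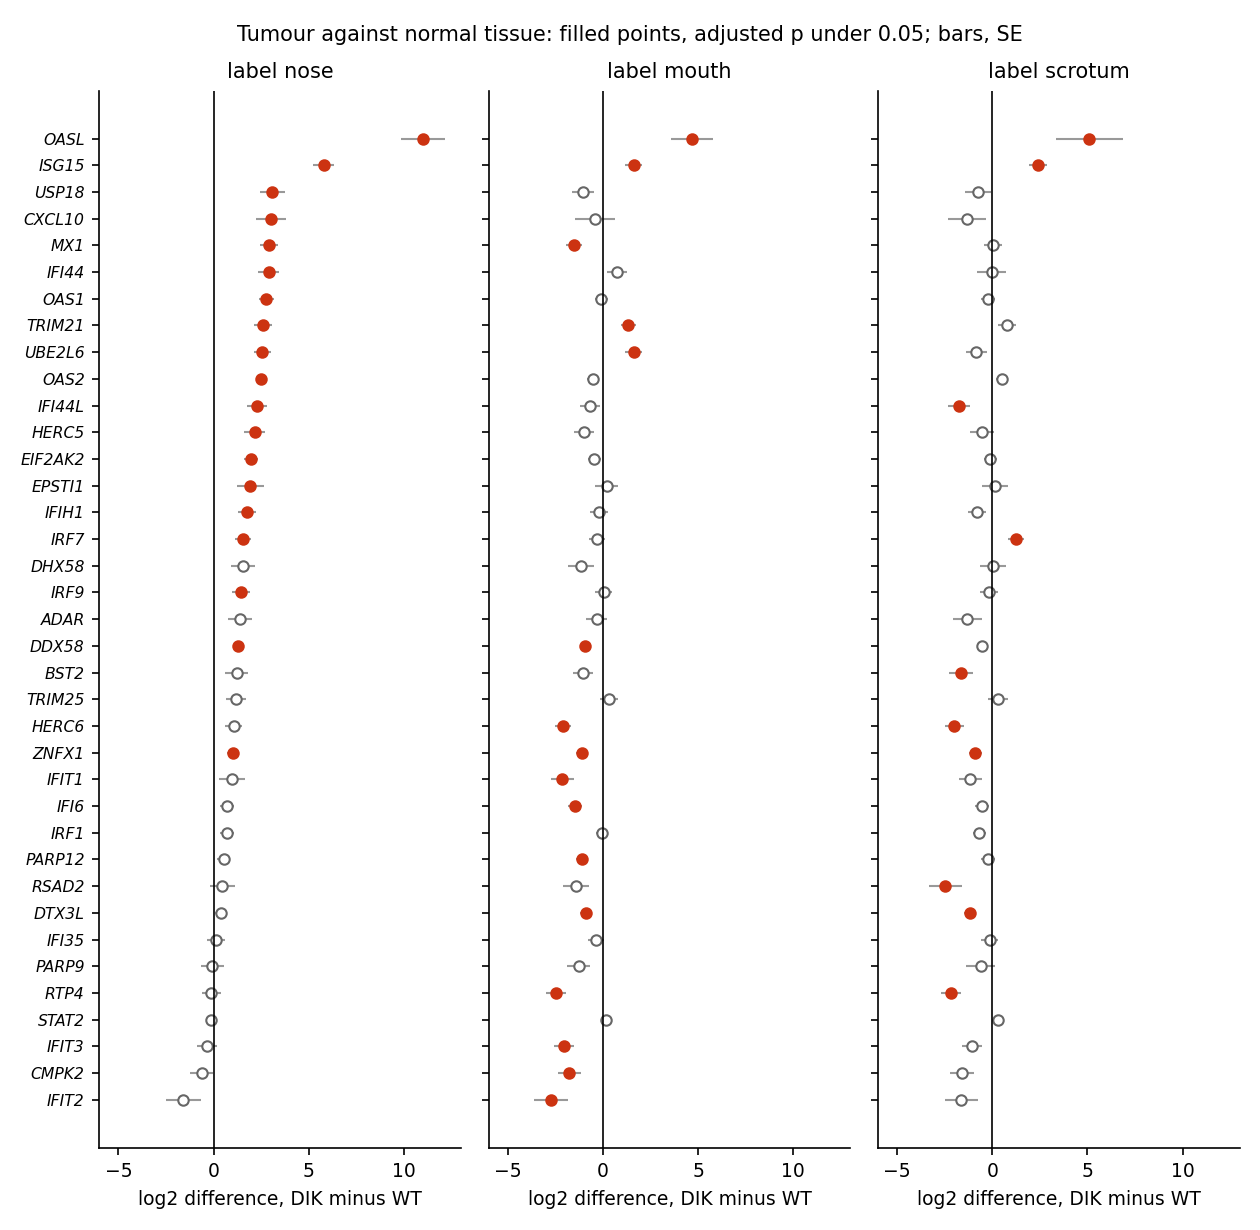
Log2 difference, DIK minus WT, of the 37 tested members at each label, ordered by the nose difference, with SE bars. Filled points have an adjusted p under 0.05: 19 to the right of 0 at the nose, 4 to the right and 12 to the left at the mouth, and 3 to the right and 7 to the left at the scrotum. OASL had 0 counts in WT nose and WT scrotum, so its fitted position there depends on the prior count and is not a measured size.

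Whether the tumour difference itself differed between labels was tested by interaction terms over all 18 libraries. The difference was lower at mouth than at nose for 14 of 37 members and higher for 0, against 4.61% and 3.99% of all genes. Between scrotum and nose it was lower for 15 and higher for 0, against 4.46% and 3.19% of all genes. The members' median interactions were -2.12 and -2.01, and those of all genes -0.12 and -0.25. These contrasts share the nose libraries, so they are given side by side. CXCL10, which the count filter kept through DIK nose, is among the 15, and a lower value there was near fixed. No member was higher in either contrast with DESeq2 or at an unadjusted p under 0.05. In each, STAT2 was the 1 member with a positive value (0.30 ± 0.35 and 0.44 ± 0.36, neither called).

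Both interactions were called for ISG15, OAS1, OAS2, MX1, IFI44L, DDX58, USP18, HERC6, EIF2AK2 and ZNFX1. The share of all genes with both interactions called was not computed. MX1 had a log2 interaction of -4.44 ± 0.62 between mouth and nose (edgeR adjusted p = 0.000225) and of -2.88 ± 0.65 between scrotum and nose (edgeR adjusted p = 0.0117). In the same order, DDX58 had -2.20 ± 0.34 and -1.80 ± 0.35, and OAS2 had -3.06 ± 0.41 and -2.01 ± 0.42. OAS1 had values of -2.86 ± 0.51 and -3.0 ± 0.53. IFI44L had -4.03 ± 0.79 between scrotum and nose, being higher in the nose tumour and lower in the scrotum tumour than in WT. HERC6, not called at the nose, had interactions of -3.16 ± 0.62 and -3.04 ± 0.67. For OASL the 0 counts in WT nose and WT scrotum make every fitted interaction depend on the prior count, so none is a measured size. None was called, with -6.30 ± 3.54 fitted between mouth and nose (edgeR adjusted p = 0.312).

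Of the 14 mouth-nose interactions, 10 were called under every alternative in which the gene was tested. IFI44L lost its call without DIK mouth replicate 2, WT nose replicate 2 or WT nose replicate 3, and HERC5 without WT nose replicate 3. IFIT1 and PARP12 were lost without most single libraries, and PARP12 also with no filter or with the size factors of DESeq2. Of the 15 scrotum-nose interactions, 8 were called under every alternative in which the gene was tested. USP18 lost its call without DIK scrotum replicate 1 or WT nose replicate 3, ZNFX1 without DIK scrotum replicate 2 or WT nose replicate 2, and EIF2AK2 without DIK scrotum replicate 1 or 2 or WT nose replicate 2. IFIH1, BST2, DTX3L and CXCL10 were lost without 6 or more of the libraries in turn. The last 3 were also lost with no filter, BST2 and CXCL10 with the replicate block, and BST2 and DTX3L with only the groups compared.

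Between the mouth and scrotum labels the tumour difference was lower at the scrotum than at the mouth for UBE2L6 alone and higher for 0 members (3 at an unadjusted p under 0.05, 0 with DESeq2), against 8.10% and 5.01% of all genes. UBE2L6 was 1.96, 2.5 and 3.13 CPM in DIK scrotum and 1.68, 7.54 and 3.01 CPM in WT scrotum, and the interaction was -2.45 ± 0.72 (edgeR adjusted p = 0.0298). It was lost with limma-voom, with library size alone as the scale (adjusted p of up to 0.193 over all alternatives), and without any 1 of DIK mouth replicate 2, DIK scrotum replicate 1 or 2, WT mouth replicate 1 or 3, or WT scrotum replicate 2. The next members by adjusted p were IRF7 and OAS2, neither called. The count of called scrotum-nose interactions was 9 without WT nose replicate 2 and lay between 10 and 21 without any other library.

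**Figure D4:**
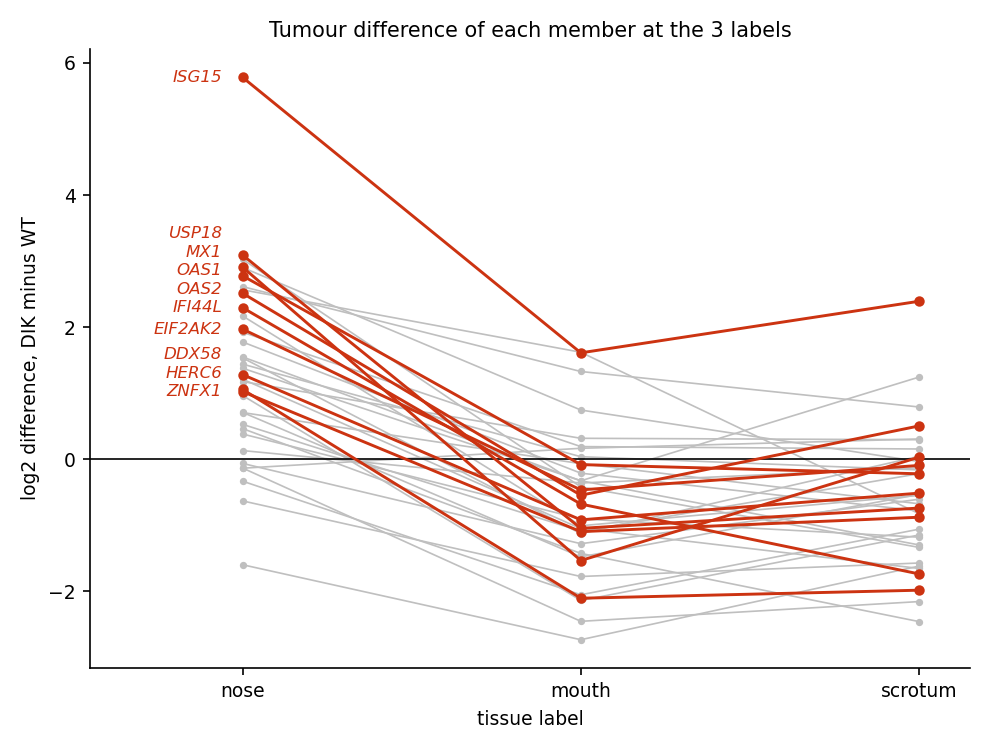
Log2 difference, DIK minus WT, of the tested members other than OASL at the 3 labels, with 1 line per member (OASL is left out because of its 0 counts in WT). The 10 members named in red were chosen because their interactions of both mouth and scrotum against nose were called. All called interactions of members with nose were lower, so the drop of these lines from nose follows from that choice.

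Within the tumours, the members were set between labels directly. DIK mouth was lower than DIK nose for 19 of 37 members and higher for 0, where 1.16% and 0.380% of all genes were called. This count was 8 without DIK nose replicate 1 or DIK mouth replicate 1, 9 without DIK mouth replicate 3, and 10 without DIK nose replicate 3 or DIK mouth replicate 2. DIK scrotum was lower than DIK nose for 21 members and higher for 0, against 2.68% and 3.16% of all genes. For 18 members both calls were made. These contrasts share the DIK nose libraries, and the share of all genes with both calls was not computed. The 18 include OASL and CXCL10, which the count filter kept through DIK nose, so lower values outside it were near fixed. Under every alternative in which the gene was tested, 7 of the 19 calls at mouth and 13 of the 21 at scrotum were made. No member was higher outside the nose with DESeq2 or at an unadjusted p under 0.05. ISG15 differed from DIK nose by -3.76 ± 0.50 log2 units in DIK mouth and by -3.72 ± 0.50 in DIK scrotum. CXCL10 was 7.77, 6.19 and 4.64 CPM in DIK nose, at most 0.533 CPM in DIK mouth and at most 0.625 CPM in DIK scrotum. Between DIK scrotum and DIK mouth, UBE2L6 was called lower (-2.61 ± 0.53, edgeR adjusted p = 0.00777) and 0 members higher, with 1.05% and 1.83% of all genes called. The UBE2L6 call was lost without DIK mouth replicate 2 or DIK scrotum replicate 1 or 2.

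Within normal tissue, few members were called between labels. WT mouth was higher than WT nose for MX1, HERC6 and IFIT1 and lower for 0 members (UBE2L6 at an unadjusted p under 0.05, 0 with DESeq2), with 9.92% of all genes called in each direction. MX1 differed by 1.43 ± 0.46, HERC6 by 1.35 ± 0.44 and IFIT1 by 2.1 ± 0.66, and this count was 0 without WT nose replicate 2 or WT mouth replicate 2 and 1 without WT nose replicate 1. STAT2 was lower in WT scrotum (8.81, 8.56 and 7.77 CPM) than in WT nose, with a log2 difference of -0.99 ± 0.26 (edgeR adjusted p = 0.0309). It was the 1 member called there, with 0 higher (IFIT1 at an unadjusted p under 0.05, 0 with DESeq2), against 3.45% and 2.60% of all genes, and the count was 0 when any library other than WT scrotum replicate 2 was left out and 3 without that library. WT scrotum was lower than WT mouth for MX1, OAS2, PARP12 and STAT2 and higher for 0, against 9.29% and 13.7% of all genes. That count was 0 without WT mouth replicate 2, 2 without WT scrotum replicate 2 and 8 without WT scrotum replicate 3. No member was higher in WT scrotum than in WT mouth with DESeq2 or at an unadjusted p under 0.05.

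Tumour and normal tissue were called different at no label for 7 of the 37 members: STAT2, IRF1, DHX58, TRIM25, ADAR, PARP9 and IFI35. The share of all genes called at no label was not computed, so this count has no background beside it. At the mouth and the scrotum in turn, IRF1 differed by -0.07 ± 0.32 and -0.68 ± 0.34, and its CPM was 10.1, 7.53 and 10.7 in DIK mouth and 7.55, 5.36 and 6.88 in DIK scrotum. STAT2 was 13.4, 8.94 and 8.13 CPM in DIK scrotum, a difference of 0.31 ± 0.26 from WT. DHX58, the RIG-I relative LGP2, differed by -1.13 ± 0.68 and 0.04 ± 0.70, and TRIM25, the ligase that activates RIG-I, by 0.32 ± 0.48 and 0.29 ± 0.52. ADAR differed by -0.33 ± 0.57 and -1.30 ± 0.76. PARP9 differed by -0.06 ± 0.62 at the nose, -1.28 ± 0.63 at the mouth and -0.61 ± 0.75 at the scrotum. IFI35 had differences of 0.13 ± 0.45, -0.36 ± 0.40 and -0.13 ± 0.44.

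Members too low to test were counted. XAF1 had 0 counts in all 18 libraries. ISG20, an RNA exonuclease, had 10 counts in DIK nose and 0 in WT nose, at least 2.30-fold higher. In DIK scrotum it had 14 counts against 1 in WT scrotum, a ratio of 19.8 with an exact 95% counting interval of 3.01 to 837. PARP14 had 31 counts in DIK nose and 3 in WT nose, a ratio of 7.14 (interval 2.23 to 36.5), and 3 counts in DIK scrotum against 16 in WT scrotum, where WT was higher by a ratio of 3.77 (interval 1.08 to 20.2). ZBP1, a sensor of Z-form nucleic acid, had 6 counts in DIK nose and 2 in WT nose. MX2 was 0.728, 2.69 and 3.82 CPM in DIK nose and 1.92, 1.83 and 1.07 CPM in WT nose, with overlap. These bounds express counting error alone, because reads that carry no molecular identifier need not be separate molecules.

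The rest of the pathway was read from lists of ligands, receptors, sensors and inhibitors. Counts of calls in these short lists stand against 21.9% of all genes higher and 20.1% lower at the nose, 22.7% and 24.3% at the mouth, and 19.4% and 24.0% at the scrotum. Of 10 interferon genes listed, 5 had a row and 1 was tested. That gene, IFNE, the interferon made by epithelium, was higher in the tumours at all 3 labels. IFNE averaged 18.8 ± 2.5 CPM (SD, n = 3) in DIK nose against 0.935 ± 0.866 CPM in WT nose, 29.9 ± 6.30 CPM in DIK mouth against 3 counts in WT mouth, and 35.8 ± 18.3 CPM in DIK scrotum against 5.07 ± 4.70 CPM in WT scrotum. The log2 differences were 3.79 ± 0.79 at the nose and 2.88 ± 0.63 at the scrotum, and the mouth ratio was 158 with an exact 95% counting interval of 53.5 to 769. The DIK nose mean was the lowest of the 3 tumour means, and the calls were made under every alternative. IFNB1 and IFNG had 0 counts in all 18 libraries.

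Receptors and JAK kinases gave 9 tested genes, of which edgeR called 1 higher and 0 lower at the nose, 3 higher and 2 lower at the mouth, and 1 higher and 2 lower at the scrotum. JAK1, the kinase shared by the receptors, was lower at the mouth (-1.14 ± 0.23) and the scrotum (-0.64 ± 0.23). IFNLR1, the receptor for interferon lambda, was higher at the mouth (4.94 ± 1.16), as was IFNAR2, a chain of the type I receptor (1.07 ± 0.35). IFNGR1, a chain of the interferon gamma receptor, was lower at the scrotum (-1.22 ± 0.30). The IFNAR2 call was lost without DIK mouth replicate 3 or WT mouth replicate 1 and with library size alone as the scale, and the JAK1 call at the scrotum with no filter, with only the groups compared, and without any 1 of the DIK scrotum libraries or WT scrotum replicate 1 or 3.

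Of 10 tested genes for sensing upstream of interferon, 4 were higher and 2 lower at the nose, 4 and 2 at the mouth, and 3 and 2 at the scrotum. The 2 lower genes are near the share of all genes at each label. MAVS, the adaptor of RIG-I and MDA5 at mitochondria, was lower at all 3 labels (-1.45 ± 0.36, -2.24 ± 0.37 and -2.1 ± 0.37). TMEM173, the DNA-pathway adaptor STING, was lower at all 3 as well (-2.05 ± 0.45, -2.0 ± 0.48 and -1.61 ± 0.52). MYD88, the adaptor of Toll-like receptors, was higher at all 3 by 1.65 to 1.70 log2 units. TRAF3, a ubiquitin ligase that relays these signals, was higher at nose (1.57 ± 0.43) and mouth (1.34 ± 0.38). MYD88 lost its nose call without WT nose replicate 2, and TMEM173 its scrotum call without DIK scrotum replicate 2 or WT scrotum replicate 3.

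Of the 6 inhibitors tested, 1 was higher and 0 lower at the nose, 2 and 1 at the mouth, and 3 and 1 at the scrotum. SOCS3, a feedback inhibitor of JAK kinases, averaged 6.47 ± 2.84 CPM in DIK nose, 4.98 ± 2.39 CPM in DIK mouth and 27.2 ± 4.24 CPM in DIK scrotum. It was higher than in WT at each label (2.80 ± 0.86, 2.01 ± 0.70 and 5.20 ± 0.77). SOCS1, its relative, was higher at the scrotum (3.33 ± 0.91). PTPN2, a STAT phosphatase, was higher at mouth (1.10 ± 0.37) and scrotum (1.11 ± 0.38), and IRF2, a repressor of response elements, was lower at both (-1.74 ± 0.44 and -1.54 ± 0.48). SOCS3 lost its nose call without DIK nose replicate 2 or WT nose replicate 2 or 3, and its mouth call without DIK mouth replicate 3 or WT mouth replicate 3. PTPN2 lost its calls without DIK mouth replicate 1, WT mouth replicate 2, DIK scrotum replicate 3 or WT scrotum replicate 1 or 3, and IRF2 its scrotum call without DIK scrotum replicate 2 or WT scrotum replicate 3. With library size alone as the scale, PTPN2 was called at neither label and SOCS3 was not called at the mouth. With only the groups compared, PTPN2 and IRF2 were not called at the scrotum, and PTPN2 was not called there with limma-voom.

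Genes that lean to interferon gamma gave 5 tested genes, of which 0 were called at the nose, 1 lower at the mouth, and 1 higher and 1 lower at the scrotum. GBP1, a GTPase that coats pathogens, was 5.84 ± 0.224 CPM in DIK nose and 6.39 ± 2.88 CPM in WT nose, and was lower at mouth (-1.75 ± 0.41) and scrotum (-2.15 ± 0.52). WARS, a tRNA synthetase, was higher at the scrotum (1.93 ± 0.40). A further list of 15 tested interferon-induced genes outside the 44 had 4 higher and 2 lower at the nose, 2 and 5 at the mouth, and 1 and 3 at the scrotum, where 4 higher at the nose and 3 lower at the scrotum are near the share of all genes. DDX60, a cofactor of RIG-I, averaged 10.9 ± 3.90 CPM in DIK nose and 0.436 ± 0.581 CPM in WT nose, and was higher at nose (4.30 ± 0.73) and mouth (2.55 ± 0.73). NT5C3A, a nucleotidase, was higher at the same labels (2.49 ± 0.49 and 2.69 ± 0.48). LGALS3BP, a secreted glycoprotein, was lower at mouth (-2.31 ± 0.38) and scrotum (-1.28 ± 0.41), the second call being lost without DIK scrotum replicate 1 or 2 or WT scrotum replicate 1 or 3. LAP3, a peptidase, was lower at nose (-1.4 ± 0.31) and scrotum (-2.39 ± 0.31). Of the 15 genes in this list, DDX60 alone was called lower in DIK mouth than in DIK nose. It alone was lower in DIK scrotum than in DIK nose, with 0 higher in either. The interaction was lower for 2 between mouth and nose (4.61% of all genes) and for 0 between scrotum and nose (4.46%). Summed over the 16 genes with a row, the list averaged 424, 427 and 425 CPM in DIK nose, DIK mouth and DIK scrotum.

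Markers of other cells were summed beside these results. The 4 general leukocyte markers summed to 84.1 to 91.0 CPM in DIK nose, 70.0 to 84.5 CPM in DIK mouth, 104 to 120 CPM in DIK scrotum and 35.5 to 67.5 CPM in WT, a sum that was highest in DIK scrotum. The single markers differed from it. At the nose 3 of the 4 (PTPRC, CORO1A and LAPTM5) were called higher than in WT, at the mouth LAPTM5 and at the scrotum CORO1A and LAPTM5. PTPRC, the pan-leukocyte antigen CD45, was called lower in DIK mouth than in DIK nose, and the median of the 4 was -1.27 there and -0.49 for DIK scrotum minus DIK nose.

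Some immune cell markers were called lower in DIK mouth or DIK scrotum than in DIK nose, in the contrasts where 19 and 21 members were lower. Macrophage markers (8 of 8 with a row) spanned 92.6 to 182 CPM in DIK nose and 92.1 to 205 CPM in WT nose, and 69.0 to 85.3 CPM in DIK mouth against 159 to 252 CPM in WT mouth. In DIK scrotum they spanned 76.9 to 189 CPM, which overlaps DIK nose, against 104 to 271 CPM in WT scrotum. Of the 7 tested, CD163, CSF1R, C1QA, C1QB and C1QC were called lower in DIK at the mouth, where 12 members were lower, and at the scrotum, where 7 were, with median differences of -1.32 and -1.93. The 3 C1Q genes were also lower in DIK scrotum than in DIK nose, and 0 macrophage markers were called at the nose between DIK and WT. T and NK cell markers spanned 10.2 to 16.9 CPM in DIK nose, 4.43 to 9.23 CPM in DIK mouth and 2.145 to 5.87 CPM in DIK scrotum, and 1.92 to 15.7 CPM in WT nose. Of these, 2 genes had enough counts to be tested, and 0 were called between DIK labels. B and plasma cell markers spanned 81.3 to 431 CPM in DIK nose, 57.0 to 86.4 CPM in DIK mouth, 43.8 to 48.9 CPM in DIK scrotum and 306 to 450 CPM in WT nose. JCHAIN, the joining chain of secreted antibodies, was called lower in DIK mouth and in DIK scrotum than in DIK nose. Markers listed for plasmacytoid dendritic cells, major makers of type I interferon, spanned 25.8 to 42.3 CPM in DIK nose and 28.8 to 36.5 CPM in WT nose (4 genes with a row), 21.2 to 32.0 CPM in DIK mouth, and 7.51 to 13.4 CPM in DIK scrotum against 27.9 to 78.5 CPM in WT scrotum. Of these, IL3RA and TCF4 were called lower in DIK scrotum than in DIK nose, lower than in WT scrotum, and in the scrotum-nose interaction. Bulk libraries do not show which cells these genes were expressed in, so their sum is not a measure of dendritic cells alone. Neutrophil markers, which include S100A8 and S100A9 that squamous epithelium also makes, spanned 2145 to 20961 CPM in DIK nose and at most 39.9 CPM in WT. They spanned 4248 to 8493 CPM in DIK mouth and 8268 to 16164 CPM in DIK scrotum. DIK nose replicates 1 and 3, at 2463 and 2145 CPM, lay below every library of these other tumours. The part of fibroblast, muscle, leukocyte, macrophage, lymphocyte, dendritic cell, neutrophil and keratinocyte content in the members' differences was not tested.

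**Figure D5:**
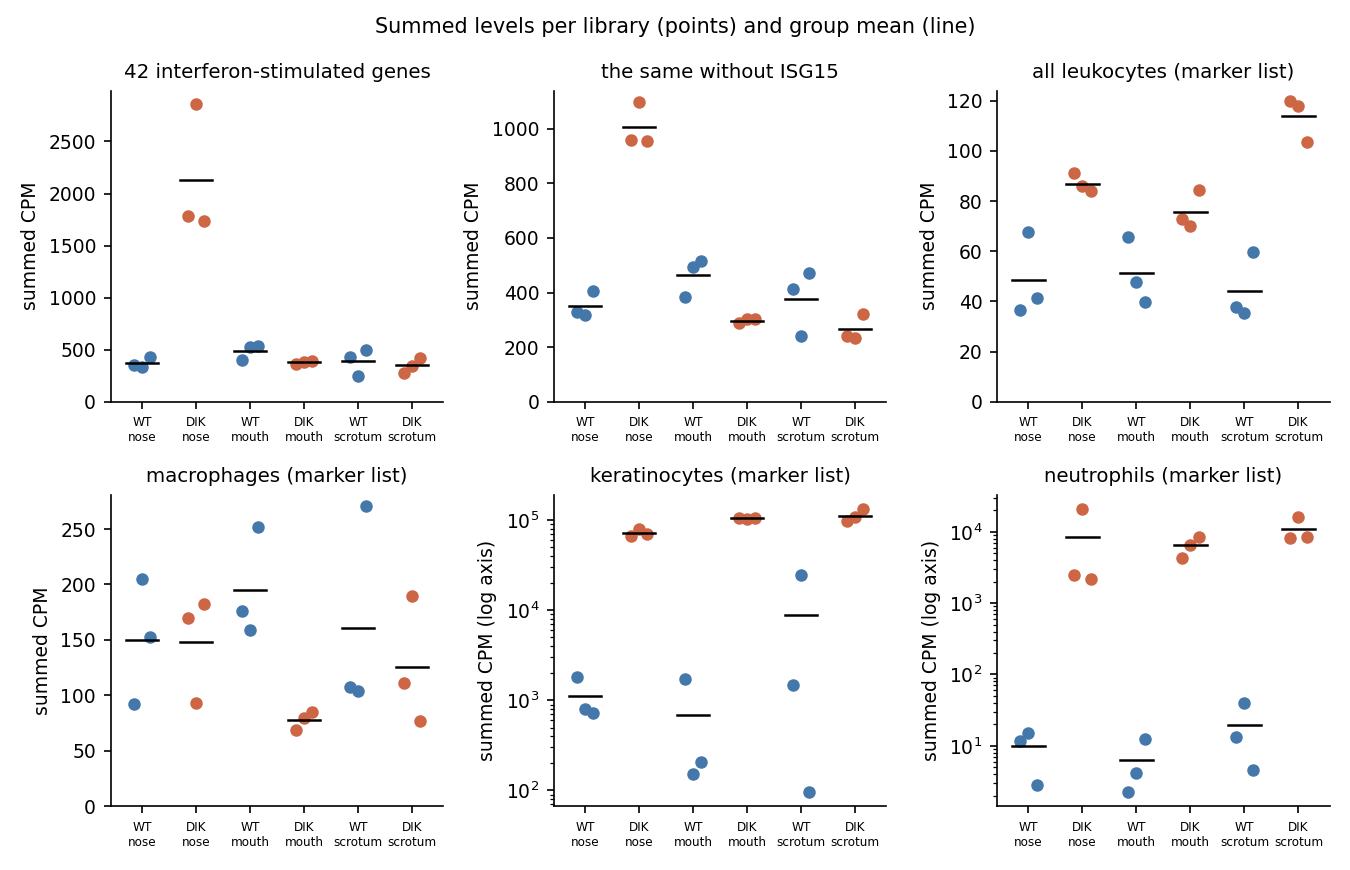
Summed CPM per library (points) with the group mean (line) for the 42 members with a row, the same without ISG15, and 4 marker lists. The keratinocyte and neutrophil axes are logarithmic. The members' sum is highest in the 3 DIK nose libraries with or without ISG15. The leukocyte sum is highest in DIK scrotum, but its single markers did not all follow it. Most of them were called higher in DIK than in WT at the nose, and PTPRC was lower in DIK mouth than in DIK nose. The part of leukocytes in the members' sum was not tested.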

How the data were processed

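Messenger RNA was measured in 18 pig libraries, 3 in each of 6 groups. Per the submitters' processing notes the tools were fastp, HISAT2 2.1.0 and HTSeq 0.11.2. RNAlater, TRIzol and the VAHTS mRNA-seq V3 kit were used for storage, extraction and libraries, per the labels' protocols. The deposited values are the authors' whole-number count of reads per gene, not normalized. Build, annotation, strand setting and handling of multiply mapped reads: not given in the sources used here. No coordinates are therefore printed, and OAS, IFIT, MX and HERC relatives or antisense partners may have shared reads. Groups came from the labels, and each column was matched by name.

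With TMM scaling, counts entered the robust quasi-likelihood test of edgeR 4.0.16 (R 4.3.3) over all 18 libraries with 1 mean per group. The default filter (minimum count 10, minimum total 15) kept 12895 genes. The biological coefficient of variation shared by all genes was 36.1%. Adjustment followed Benjamini and Hochberg over all genes in each contrast, with a call at an adjusted p under 0.05. For the SE, the size of the log2 difference was divided by the root of F. CPM uses TMM-scaled totals. Folds against 0 counts use a floor of 3 counts over the group, and ratios on 1 to 3 counts carry exact 95% intervals.

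The members and all lists were chosen with earlier results of these data known, and the posterior HOX list was added after the files had been seen. Values per library are given for ISG15, STAT2, IRF9, IRF1 and IRF7, for up to 6 called members per direction and label by adjusted p, and for the 3 smallest adjusted p of each interaction. Of each pathway list up to 4 genes are named. MX2, EIF2AK2 and CXCL10, whose values per library are also printed, were chosen after their values were seen. 1 gene of the receptor and kinase list is not reported here, and the list was counted without it. The steps were tested on simulated counts. Alternatives were other scalings and filters, DESeq2 1.42.0, limma 3.58.1 (voom with quality weights), a fit to the compared groups alone, a block for the replicate number, and libraries left out.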

Additional observations from a re-analysis of the deposited data

Results flagged for a closer look

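The tumour difference of a member was marked for a closer look where it differed between labels by the edgeR interaction test at an adjusted p under 0.05. Between mouth and nose this held for 14 members, all with the lower difference at the mouth. The log2 interactions were -4.17 for ISG15, -2.86 for OAS1, -3.06 for OAS2, -4.44 for MX1, -3.10 for IFIT1, -2.19 for IFI6, -2.97 for IFI44L, -2.20 for DDX58, -4.14 for USP18, -3.18 for HERC5, -3.16 for HERC6, -2.43 for EIF2AK2, -1.62 for PARP12 and -2.12 for ZNFX1. Their adjusted p-values from edgeR ran from 0.000173 to 0.0433.

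Between scrotum and nose it held for 15 members, again all lower outside the nose. The log2 interactions were -3.39 for ISG15, -3.0 for OAS1, -2.01 for OAS2, -2.88 for MX1, -4.03 for IFI44L, -2.56 for IFIH1, -1.80 for DDX58, -3.83 for USP18, -3.04 for HERC6, -2.87 for BST2, -2.06 for EIF2AK2, -1.56 for DTX3L, -1.90 for ZNFX1, -3.39 for UBE2L6 and -4.36 for CXCL10. The edgeR adjusted p-values ran from 0.00262 to 0.0472. These contrasts share the nose libraries and do not support each other.

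Between scrotum and mouth it held for UBE2L6 alone, with a log2 interaction of -2.45 (edgeR adjusted p = 0.0298). This value was not called with library size alone as the scale, with limma-voom, without both WT nose replicate 1 and WT scrotum replicate 2, or without any 1 of 6 single libraries.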

How the results depend on the processing

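No log2 difference of a member between DIK and WT that was called changed its sign under any alternative. Of the calls, 15 of 19 at the nose, 11 of 16 at the mouth and 4 of 10 at the scrotum were made in every setting in which the gene was tested (the filter at 10 CPM in 3 libraries tested 21 of 37 members, and fits to only the groups compared left out some). With limma-voom, 19 members were lower at the mouth and 13 at the scrotum. With only the groups compared, 4 were lower at the scrotum, where 23 members were tested, BST2 and RSAD2 were not, and ZNFX1 lost its call, and without both WT nose replicate 1 and WT scrotum replicate 2, 13 were. Leaving out the same libraries (chosen after seeing the data for the interactions) gave 0 called interactions between scrotum and mouth. Without a filter on low counts, 0 members were called between WT scrotum and WT nose. The causes were not tested.

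Leaving out 1 library at a time gave 1 to 2 members higher and 3 to 13 lower at the scrotum, 9 to 21 called interactions of scrotum with nose and 0 to 2 of scrotum with mouth. Between labels it gave 0 to 4 (WT mouth and nose), 0 to 3 (WT scrotum and nose), 0 to 8 (WT scrotum and mouth), 8 to 14 (DIK mouth and nose) and 0 to 1 (DIK scrotum and mouth). It gave 17 to 21 members higher at the nose and 10 to 12 lower at the mouth.

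Scaling by library size alone moved the median log2 difference of all genes from -0.04 to -0.29 at the mouth, where 16 members in place of 12 were lower and 4 higher as before, with 2118 genes higher and 3754 lower in all against 2921 and 3133. At the scrotum the median went from -0.09 to -0.21, with 1946 genes higher and 3243 lower against 2507 and 3100.

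Of 45 same-numbered pairs of libraries, 7 had a correlation of deviations over 0.1, and 0 of the 9 DIK and WT pairs of 1 label did, so the numbers were not taken as pairs. With the replicate block the counts were 19 higher at the nose, 4 higher and 12 lower at the mouth, and 3 higher and 6 lower at the scrotum, where BST2 lost its call. A search of promoters for response elements was planned and not run, since no promoter sequence was used here. Depth limits the members under about 5 CPM, since 3 counts equal 5.76 CPM in WT nose replicate 1.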
